A study of Mus musculus with 8 samples.

Results

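The HSP90 machinery and the mitochondrial chaperonin were followed through 10 genes chosen by name, with earlier results of these libraries known. They are the cytosolic HSP90 genes Hsp90aa1 and Hsp90ab1, the co-chaperone genes Ahsa1, Stip1, Chordc1, Fkbp4, Ptges3 and Cdc37, and the chaperonin pair Hspd1 and Hspe1. All 10 were found among the 23337 genes of the table, and all 10 passed the filter of a mean of at least 10 normalised reads, as did 13480 genes in all. The values compared between groups were the ones in view when the genes were chosen, so the levels and differences of these 10 genes are given as a description, without a test.

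The libraries hold RNA of cells sorted by flow cytometry as endothelial from whole mouse embryos at E15.5, where E counts days of embryonic development. The parents' alleles are given as Cdh5-CreERT2(PAC), a Cre recombinase under control of an endothelial gene that tamoxifen activates, and Rosa26fsTRAP, a Cre-dependent allele. The genotype field of every sample says wild type. Mothers in the tamoxifen group were gavaged at E12.5 and those in the other group were not. The labels list 4 samples per group, give no tamoxifen dose and do not say whether the mice without tamoxifen received the carrier alone. Tamoxifen and any recombination after it cannot be told apart here. The labels do not say that the samples came from separate litters. The spread behind every p-value is therefore that between these libraries and may not include that between litters.

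The header of the table is 1 field short of its data lines. Counting the gene name as field 1, fields 3 to 5 carry names without tamoxifen and fields 7 to 9 names with tamoxifen wherever the header is placed. These 6 libraries, 3 per group, were compared. In the order of their columns they are named no_tamoxifen_1, no_tamoxifen_2 and no_tamoxifen_3, then tamoxifen_1, tamoxifen_2 and tamoxifen_3. Fields 6 and 10 change group or lose their name with the placement and are shown apart. Field 2, named without tamoxifen only when the header names are placed over the first 8 value columns, was not used. The 6 libraries held 12212472 to 19908404 reads in genes, of which the ribosomal RNA precursor Rn45s took 29.4% to 38.7%. Endothelial markers were present, with a summed level of 7883 to 19489 normalised reads over 10 genes and none at 0 throughout. Of these 10, 2 had a positive difference, that is tamoxifen minus no tamoxifen. Macrophage markers were higher still, at 31140 to 50486 over 10 genes, and 0 of the 10 were positive. In such bulk samples fewer cells of a type and less RNA per cell cannot be told apart. The mesenchymal markers were at 2016 to 4328 normalised reads without tamoxifen and at 56326, 87053 and 4487 with it, with 10 of 10 positive and none at 0 throughout. The cartilage markers followed the same libraries, with 10 of 10 positive, none at 0 throughout, and sums of 587 to 820 without tamoxifen and of 18948, 16215 and 799 with it. The erythroid markers summed to 188, 148 and 198 without tamoxifen and to 1112, 1384 and 166 with it. Of the 10 listed, 4 passed the filter and all 4 were positive, while Hba-a1 and Hba-a2 were at 0 throughout. The 4 Y-linked genes summed to 631, 118 and 490 normalised reads without tamoxifen and to 861, 1067 and 1000 with it. The X-linked RNA Xist was at 15055.5 to 23505.8 without tamoxifen, highest in no_tamoxifen_2, and at 6612.6 to 11668.5 with it. The groups stood apart in both measures. The part of these cell markers, Y-linked genes and Xist in the differences below was not tested.

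HSP90 is an abundant cytosolic chaperone that completes the folding of signalling proteins such as steroid receptors and kinases, in a cycle driven by ATP and steered by co-chaperones. Hsp90aa1 encodes the stress-inducible form and Hsp90ab1 the constitutive form. Hspd1 and Hspe1 encode HSP60 and HSP10, the barrel and the lid of the chaperonin that folds proteins in the mitochondrial matrix. In endothelial cells HSP90 is known as a partner of the nitric oxide synthase NOS3. Heat shock factor 1, which HSP90 holds in check in unstressed cells, drives many chaperone genes through heat shock elements, arrays of inverted GAA units.

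The promoter windows of these genes were searched for such arrays because several of the genes differed in the same direction. RefSeq windows on GRCm38.p6, from 250 bases before a start to 50 after it, were at hand for 8 of the 10 genes, without Hsp90aa1 and Hsp90ab1. The motifs were GAANNTTC and TTCNNGAA for 2 units, and GAANNTTCNNGAA and TTCNNGAANNTTC for 3 units. Each 2-unit form reads the same on both strands, and the 3-unit forms overlap them and are each other's reverse complement. A 3-unit array was in a window of 3 of the 8 genes, Hspd1, Hspe1 and Chordc1. Such an array was in 0.603% of all 32851 windows and, by gene, in 56 of 9562 tested genes with a window. Hspd1 and Hspe1 hold the same array, which is counted for both. Fkbp4 and Cdc37 had 2 units only, which 15.1% of all windows hold, and no match was in the windows of Ahsa1, Stip1 and Ptges3. The longest match in each window is printed 5′ to 3′ on the strand of the gene, with the array in capitals:
Hspe1: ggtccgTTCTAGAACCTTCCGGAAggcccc
Chordc1: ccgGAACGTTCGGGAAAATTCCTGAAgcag
Fkbp4: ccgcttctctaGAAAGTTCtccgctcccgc
Cdc37: tcggcgggaacTTCCAGAAggcctcaccac

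The Hspe1 stretch lies at chr1:55088053-55088082 on the plus strand and holds 4 units, from base -89 to base -72 before the Hspe1 start. Hspd1 is transcribed the other way from the same region, and 1 of its 2 windows holds the same stretch on the opposite strand. The pair therefore shares this array, for Hspd1 in the window of its start at 55087932. The window of the other Hspd1 start, at 55088243, holds no match. The Chordc1 stretch, at chr9:18292260-18292289 on the plus strand, holds 5 units and spans the start, from base -4 to base 19, and is the longer of 2 matches in that window. The Fkbp4 stretch is at chr6:128438789-128438818 and that of Cdc37 at chr9:21150086-21150115, both on the minus strand. A match is a description of these letters, and binding of a factor was not measured.

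Hsp90aa1, the stress-inducible cytosolic HSP90 gene on chromosome 12 at 110690605 to 110702728 of GRCm38, showed the widest gap of the 10 genes. It was at 5179, 6837 and 5026 normalised reads in the 3 libraries without tamoxifen and at 14892, 10199 and 9708 in the 3 with it. All 3 tamoxifen libraries lay above the 3 others, and tamoxifen_1 was the highest. The means were 5681 ± 1004 and 11600 ± 2861 (SD, n = 3 each), a log2 difference of 1.02 ± 0.19 (SE), or 2.02-fold. Relative to the mean without tamoxifen it was at 2.62 in tamoxifen_1, 1.80 in tamoxifen_2 and 1.71 in tamoxifen_3, whose mesenchymal sums were 56326, 87053 and 4487.

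Hsp90ab1, the constitutive gene on chromosome 17 at 45567775 to 45573271, had the highest level of the 10. It was at 23965, 29475 and 23493 normalised reads without tamoxifen and at 30663, 29781 and 29860 with it. The groups stood apart by the small step from 29475 to 29781. The means were 25644 ± 3326 and 30101 ± 488 (SD, n = 3 each), a log2 difference of 0.24 ± 0.14 (SE).

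The mitochondrial pair differed by similar factors. Hspd1, which encodes the chaperonin barrel, lies on chromosome 1 at 55077835 to 55088243. It was at 3309, 4156 and 3149 normalised reads without tamoxifen and at 6061, 4626 and 4850 with it. Hspe1, which encodes the lid, lies beside it at 55088132 to 55091307, in the opposite orientation. It was at 662, 758 and 513 normalised reads without tamoxifen and at 977, 952 and 918 with it. For both genes the lowest tamoxifen library lay above the highest library without it. The log2 differences were 0.55 ± 0.15 (SE) for Hspd1 and 0.58 ± 0.15 (SE) for Hspe1, or 1.46-fold and 1.49-fold. The annotations of the pair overlap on opposite strands, and the sources used here do not give whether strand was used in counting.

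The co-chaperones differed less, and in all 6 the groups overlapped. Chordc1, whose protein CHORDC1 binds the HSP90 ATPase domain, was at 504, 630 and 409 normalised reads without tamoxifen and at 684, 588 and 654 with it. Here 2 of the tamoxifen libraries lay above all others and tamoxifen_2 lay below no_tamoxifen_2 (log2 difference 0.34 ± 0.16, SE). Ahsa1, which encodes the activator of the HSP90 ATPase, was at 1072, 1240 and 1087 without tamoxifen and at 1283, 1184 and 1360 with it. Its tamoxifen_2 value fell inside the range without tamoxifen (log2 difference 0.17 ± 0.11, SE). Stip1, which encodes the adaptor that hands clients from HSP70 to HSP90, was at 1873, 2490 and 1953 without tamoxifen and at 2396, 2154 and 2481 with it. All 3 tamoxifen values lay below no_tamoxifen_2 and above the other 2 (log2 difference 0.16 ± 0.13, SE).

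Fkbp4, a prolyl isomerase gene of steroid receptor complexes, was at 1919, 2218 and 2116 without tamoxifen and at 2128, 2142 and 2387 with it. Only tamoxifen_3 lay above the range without tamoxifen (log2 difference 0.09 ± 0.10, SE). Ptges3, which encodes p23, the co-chaperone that stabilises the ATP-bound form, was at 2330, 2562 and 2112 without tamoxifen and at 2103, 2027 and 2334 with it. Cdc37, which encodes the adaptor for kinases, was at 2262, 2603 and 2043 without tamoxifen and at 1945, 1987 and 2101 with it. For both genes 2 of the tamoxifen libraries lay below all 3 libraries without tamoxifen. These 2 genes were the ones with a negative difference, -0.11 ± 0.11 (SE) for Ptges3 and -0.19 ± 0.11 (SE) for Cdc37.

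By count, 8 of the 10 genes had a positive difference, where 46.5% of all genes tested did, and the median log2 difference was 0.21 against -0.02 over all genes tested. The groups did not overlap for 4 of the 10, with tamoxifen above in each, where 6.24% of all genes tested were apart with tamoxifen above, 7.62% with it below and 13.9% either way. No test is given for the 10 genes. Over all genes tested, limma with Benjamini-Hochberg adjustment called 0.0445% as higher, edgeR 0.0371% and DESeq2 1.83%, and 2.04% passed DESeq2 in either direction. Before adjustment, 4.89% of all genes were higher in limma at p under 0.05 and 9.01% differed either way. As the comparison was in view when the genes were chosen, nothing is read from the counts of the 10.

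The libraries also differed within a group. All 10 genes were highest in no_tamoxifen_2 among the libraries without tamoxifen, which was the highest of the 3 for 33.3% of all genes tested. Among the tamoxifen libraries 5 genes were highest in tamoxifen_1, which were Hsp90aa1, Hsp90ab1, Hspd1, Hspe1 and Chordc1. The other 5, Ahsa1, Stip1, Fkbp4, Ptges3 and Cdc37, were highest in tamoxifen_3. Among all genes tested tamoxifen_1 was the highest of its group for 25.6% and tamoxifen_3 for 46.8%. The spread from lowest to highest without tamoxifen was 1.16-fold for Fkbp4 and Ahsa1 and 1.54-fold for Chordc1. The differences of Hsp90ab1, Ahsa1, Stip1, Chordc1, Fkbp4, Ptges3 and Cdc37 were each within the spread of the same gene without tamoxifen. Hspe1 differed 1.49-fold against a spread of 1.48-fold, Hspd1 1.46-fold against 1.32-fold and Hsp90aa1 2.02-fold against 1.36-fold.

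Ratios within a library do not depend on how libraries were scaled. The ratio of Hsp90aa1 to Hsp90ab1 reads in the 3 libraries without tamoxifen was 0.216, 0.232 and 0.214, and in the 3 with it 0.486, 0.342 and 0.325. The groups stood apart, and the log2 difference was 0.78, with a pooled SD of 0.23 between libraries of a group. Per kilobase of transcript, Hsp90aa1 made up 14.1% to 15.1% of the 2 cytosolic HSP90 mRNAs without tamoxifen and 27.2%, 20.8% and 19.98% with it. The ratio of Hspd1 to Hspe1 reads was 4.999, 5.48 and 6.14 in the libraries without tamoxifen and 6.20, 4.86 and 5.28 in the others. Those values overlapped, with a log2 difference of -0.03 and a pooled SD of 0.16. The inducible form took a larger part of the cytosolic HSP90 mRNA in each tamoxifen library, while no shift between barrel and lid mRNA was detectable against this spread.

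**Figure D1:**
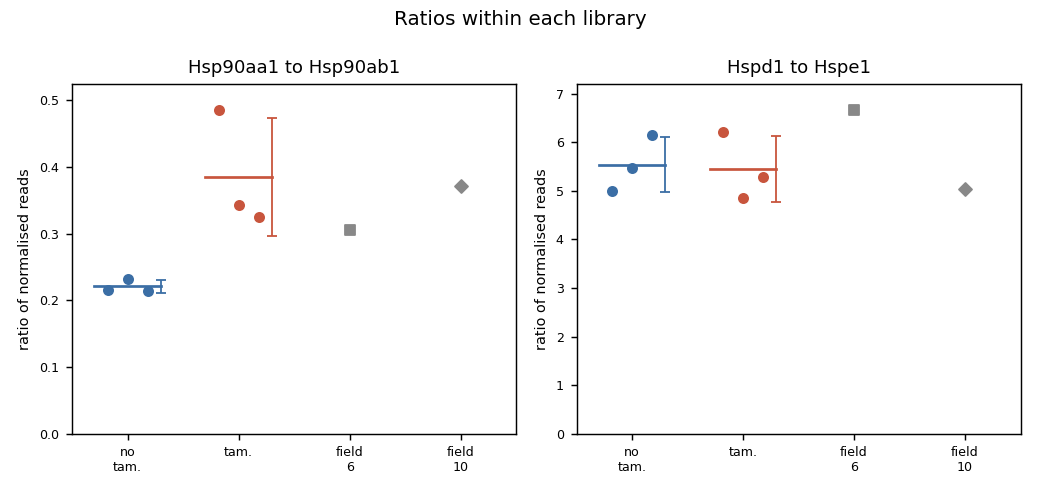
Ratio of normalised reads of Hsp90aa1 to Hsp90ab1 (left) and of Hspd1 to Hspe1 (right) in each library (vertical axes, starting at 0), with group means and ± 1 SD. The left ratio is 0.214 to 0.232 without tamoxifen and 0.325 to 0.486 with it, and the right ratio overlaps between groups.

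Levels of different genes were compared per kilobase, with the longest principal transcript of each gene in GENCODE M21. Without tamoxifen the order of mean normalised reads per kilobase was Hsp90ab1 (10176 ± 1320, SD, n = 3), Hsp90aa1 (1731 ± 306), Hspd1 (1460 ± 223), Ptges3, Stip1, Fkbp4, Hspe1 (833 ± 160), Ahsa1, Cdc37 and Chordc1 (88.9 ± 19.1). Hsp90aa1 and Hspd1 overlapped between libraries there, as did each neighbouring pair from Ptges3 to Ahsa1. With tamoxifen Hspe1 stood at 1226 ± 38 and moved from place 7 to place 4, and Hsp90aa1 (3535 ± 872) lay above Hspd1 (2137 ± 319) in all 3 libraries. That move depends on the length used: with the length of all annotated exons in place of 1 transcript, Hspe1 was at place 7 in both groups (437 and 644 normalised reads per kilobase), and Ahsa1 and Cdc37 changed places without tamoxifen. The low place of Cdc37 rests on a length of 7851 bases, against 2000 for Ptges3. Before division by length their means without tamoxifen were 2303 ± 282 and 2335 ± 225 normalised reads (SD, n = 3). No shorter length was tried. The 10 genes together took 0.467% to 0.581% of the normalised reads other than Rn45s without tamoxifen and 0.608% to 0.715% with it.

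The 2 fields kept apart went in opposite directions. In field 6, Hsp90aa1 was at 2921 and Hspd1 at 1575 normalised reads, and all 10 genes were below every one of the 6 libraries, as were 43.5% of all genes tested. Field 6 was unlike the other libraries in its markers as well, with a mesenchymal sum of 450099 and a macrophage sum of 812. In field 10, Hsp90aa1 was at 13295 and Hspd1 at 6106, and 8 of the 10 genes were above every library without tamoxifen, as were 25.6% of all genes tested. With the names placed over the last 8 value columns, which puts field 6 without tamoxifen and field 10 with it, all 10 log2 differences were positive, from 0.21 for Cdc37 to 1.31 for Hsp90aa1. With the names over the first 8, which puts field 6 with tamoxifen, 4 of the 10 were positive, and Hsp90ab1, Ahsa1, Stip1 and Fkbp4 turned negative. Hsp90aa1 was then at 0.53, Hspd1 at 0.12, Hspe1 at 0.08 and Chordc1 at 0.06. The Hsp90aa1 to Hsp90ab1 ratio was 0.305 in field 6 and 0.371 in field 10, both above the libraries without tamoxifen. Its log2 difference was 0.65 with the names over the last 8 and 0.70 with the names over the first 8.

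**Figure D2:**
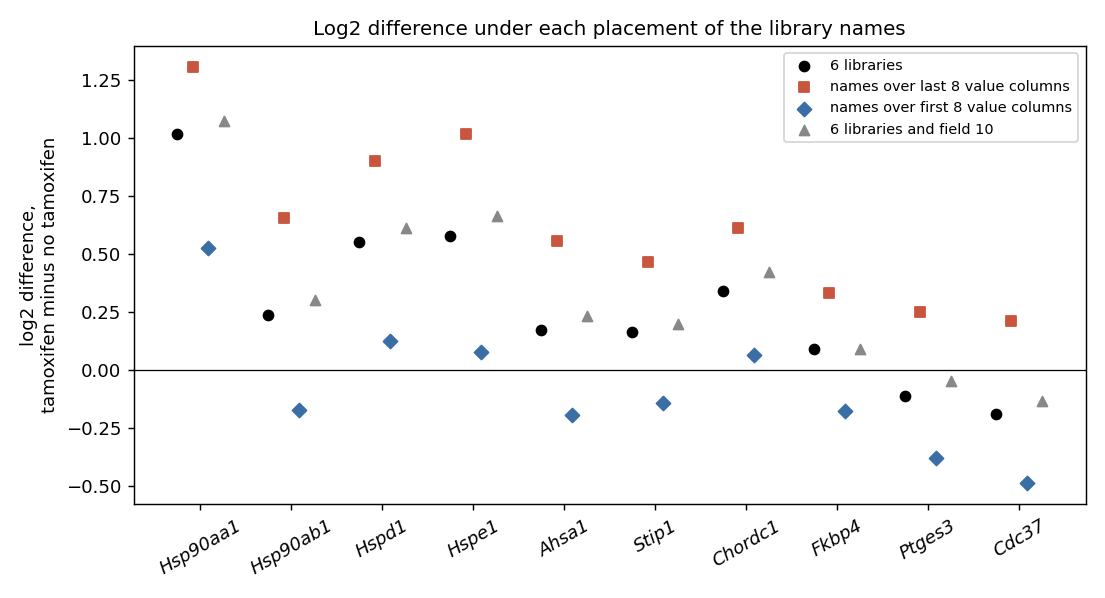
Log2 difference, tamoxifen minus no tamoxifen (vertical axis), of each of the 10 genes with the 6 libraries (black), with names placed over the last 8 (red) or the first 8 (blue) value columns, and with field 10 added to the 6 libraries as tamoxifen (grey). Hsp90aa1 is positive in all 4 settings, from 0.53 to 1.31. Hsp90ab1, Ahsa1, Stip1 and Fkbp4 are below 0 with the names over the first 8, where field 2 was left out.

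Other HSP90 paralogs and co-chaperones, with some of their partners such as Flcn, 36 genes listed by function, were mostly below 0. Trap1 is counted both here and among the mitochondrial genes below. Of the 36 tested, 13 had a positive and 23 a negative difference, where 46.5% of all genes tested were positive. The median was -0.08 against -0.02 over all genes. None passed limma over all genes (0 of 36, where 1 was higher and 2 were lower with p under 0.05 before adjustment, against 4.89% and 4.12% of all genes), and 0 passed edgeR or DESeq2. The gene of lowest p was Ahsa2, a relative of Ahsa1, at 415, 418 and 415 normalised reads without tamoxifen and 660, 491 and 560 with it (log2 difference 0.44 ± 0.13, SE, limma adjusted p = 0.462). Fnip2, whose protein binds folliculin and slows the HSP90 ATPase, was at 1465, 1323 and 1363 and at 952, 812 and 1319 (-0.46 ± 0.17, SE, limma adjusted p = 0.502). Sugt1, a partner of HSP90 in immune receptor folding, was at -0.40 ± 0.16 (SE, limma adjusted p = 0.527). Hsp90b1, the HSP90 of the endoplasmic reticulum, was at 10440, 11802 and 8548 without tamoxifen and 7596, 7481 and 9650 with it (-0.31 ± 0.16, SE, limma adjusted p = 0.580). Trap1, the mitochondrial HSP90, was at -0.03 ± 0.11 (SE). Without tamoxifen_3, 2 of the 36 passed as lower, where 3.48% of all genes did, Fnip2 (-0.65, limma adjusted p = 0.00237) and the folliculin gene Flcn (-0.40, limma adjusted p = 0.0426).

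Other mitochondrial chaperones, import subunits and proteases were nearly all below 0. Of 27 genes tested, 2 had a positive and 25 a negative difference, where 46.5% of all genes tested were positive. The median was -0.13 against -0.02 over all genes. None passed limma over all genes (0 of 27), and 0 passed edgeR or DESeq2. Before adjustment, 0 were higher and 1 was lower in limma at p under 0.05, against 4.89% and 4.12% of all genes. The prohibitin gene Phb, whose product scaffolds the inner membrane, was at 1118, 1289 and 936 normalised reads without tamoxifen and at 757, 908 and 929 with it (-0.36 ± 0.14, SE, limma adjusted p = 0.524). Timm23, an import channel gene, was at -0.28 ± 0.14 (SE, limma adjusted p = 0.593). The protease genes Yme1l1 and Clpp were at -0.24 ± 0.13 and -0.30 ± 0.17 (SE, limma adjusted p = 0.602 and 0.610). Hspa9, the mitochondrial HSP70 that feeds proteins to the chaperonin, was at 3190, 3572 and 2965 without tamoxifen and 3085, 2718 and 3535 with it, and its groups overlapped (-0.06 ± 0.13, SE).

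Genes of HSP90 client proteins gave no direction. Of 33 listed, 31 passed the filter, and of these 16 were positive and 15 negative, with a median of 0.00. None passed limma over all genes (0 of 31), and 0 passed edgeR or DESeq2. Before adjustment, 0 were higher and 1 was lower in limma at p under 0.05, against 4.89% and 4.12% of all genes. The kinase gene Tbk1 was at -0.31 ± 0.12 (SE, limma adjusted p = 0.516), Lyn at -0.18 ± 0.12 and Chuk at -0.19 ± 0.13 (SE, limma adjusted p = 0.661 and 0.678). The receptor gene Nr3c2, at 9.54 to 11.9 normalised reads without tamoxifen and 11.9 to 23.6 with it, was at 0.59 ± 0.44 (SE, limma adjusted p = 0.697). Nos3, the endothelial client, was at 582, 459 and 355 without tamoxifen and at 626, 712 and 255 with it (0.09 ± 0.37, SE). Nos3 and the sum of the endothelial markers were both lowest in tamoxifen_3. Without tamoxifen_3, the growth factor receptor genes Egfr (1.15, limma adjusted p = 0.0196) and Erbb2 (1.18, limma adjusted p = 0.00378) passed as higher, 2 of the 31, where 7.22% of all genes did. The tamoxifen libraries left were then those with mesenchymal sums of 56326 and 87053, whose part in this was not tested.

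The other heat shock genes ranged from -0.10 for Hspa4 to 5.32 for Hspa1b on the log2 scale. Of 22 listed, Cryab was below the filter, and of the 21 tested 19 were positive and 2 negative, with a median of 0.62. Of these, 5 rose in limma over all genes and 0 fell, where 0.0445% of all genes rose. That share is 6 of 13480 genes and is made up of these same 5 and Nr4a1. The 5 were Hspa1b (5.32 ± 0.23, SE, limma adjusted p = 8.83e-05), Hspa1a (4.79 ± 0.22, SE), Dnajb1 (3.08 ± 0.23, SE), Hsph1 (3.11 ± 0.28, SE) and Bag3 (2.00 ± 0.23, SE, limma adjusted p = 0.0362). On the same scale Hsp90aa1 was at 1.02 and Hspd1 at 0.55, and a difference between the lists was not tested. This list was known from earlier results to respond, so its direction is not independent evidence. The count was 3, 2 and 2 without no_tamoxifen_1, no_tamoxifen_2 and no_tamoxifen_3. It was 10 without tamoxifen_3, where 7.22% of all genes passed as higher. Hsph1 missed the threshold without each of the 3 libraries lacking tamoxifen (limma adjusted p = 0.0791, 0.0872 and 0.155), and Dnajb1 without no_tamoxifen_2 or no_tamoxifen_3 (0.0696 and 0.0795). Bag3 missed it in those 3 leave-outs (0.125, 0.410 and 0.313), without tamoxifen_2 (0.0853) and in edgeR (0.0528).

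**Figure D3:**
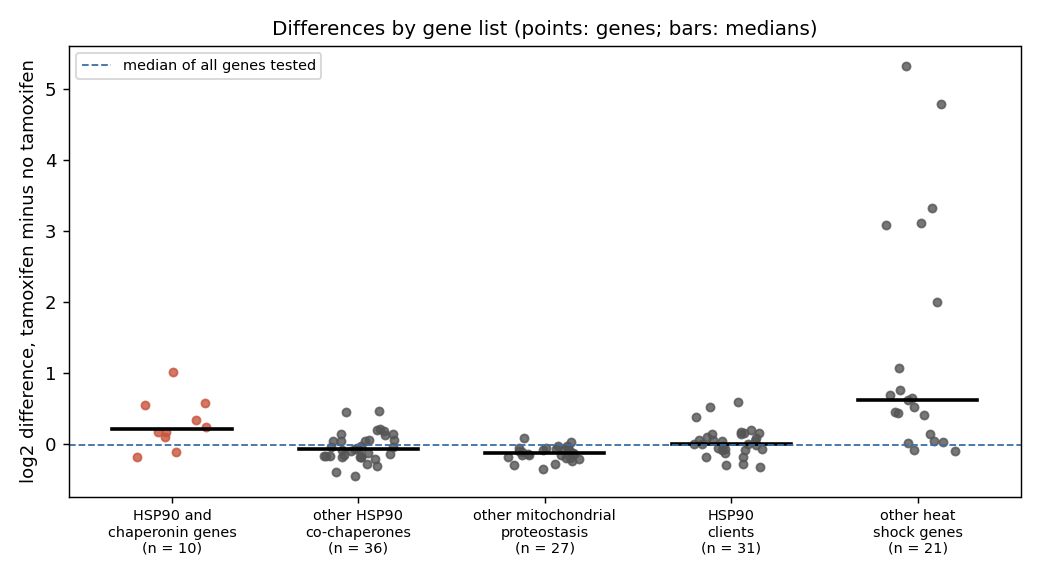
Log2 difference, tamoxifen minus no tamoxifen (vertical axis), of the genes tested in each list (points), with list medians (black bars) and the median of all genes tested (dashed line). The 10 HSP90 and chaperonin genes have a median of 0.21, the other co-chaperones -0.08, the other mitochondrial genes -0.13, the clients 0.00 and the other heat shock genes 0.62.

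The genes whose pattern over the 6 libraries was most like that of Hsp90aa1 were taken by Pearson correlation of log2 values among 10326 named genes. They were Fbxo28 (r = 0.990), Zmym1 (0.987), Smyd4 (0.981), the HSP110 gene Hsph1 (0.976) and Alox15 (0.973). For Hspd1 they were the constitutive HSP70 gene Hspa8 (r = 0.984), Smyd4 (0.974), Dusp10 (0.973), Atad2b (0.969) and Zmym1 (0.965). The 6 points share their scaling and fall into the 2 groups, so any gene that differs between the groups scores high, and these values are a description. Hspa8 was at 17671, 20377 and 17418 normalised reads without tamoxifen and at 29363, 21848 and 24616 with it.

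Copies in the genome could take part in some of these counts. Annotated transcripts of other genes matched over at least 200 bases at 95% identity or more for Hsp90aa1 (3 genes), Hspd1, Hspe1, Ahsa1 and Ptges3 (1 each), and for none of the other 5. No such copy has a row in the table, and the sources used here do not give how shared reads were counted.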

How the data were processed

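RNA of sorted cells was sequenced after removal of ribosomal RNA. The authors deposited 1 table of signal per gene, that is reads scaled by library. Tools listed per the submitters' processing notes were STAR, DESeq2 and HTSeq 0.11.2, with builds hg38 and mm10 and no roles stated. Dividing by the step of each library gave whole reads for 100% of values (tolerance 0.001), so reads could be recovered. The 1 value column not used, in any setting, was field 2. Groups were compared with limma 3.58.1 (R 4.3.3) on log2(value + 1), with a mean-variance trend and Benjamini-Hochberg adjustment at 0.05 over 13480 genes. Fold changes are on that scale, which understates low genes. edgeR 4.0.16 and DESeq2 1.42.0 on recovered reads, other pseudocounts, filters and scalings, leave-outs, the replicate block and both header placements were alternatives. Tests were checked on simulated counts, which held no cell marker differences like those between these libraries. The 10 genes, the lists and the naming rule (all 10, then each list's calls or its 4 lowest p) were chosen with earlier results of these data known. List symbols were found for 177 of 178 entries, 4 by synonym. Hspa9, Trap1, Nos3, Flcn, Egfr and Erbb2 were named after their values were seen, as was Hspa8 beside its likeness.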

Additional observations from a re-analysis of the deposited data

Results flagged for a closer look

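Field 10 entered no comparison of the report except where the placement of the header was varied or where it was added as a tamoxifen library. It was above every library without tamoxifen for 8 of the 10 genes, at 13295 normalised reads for Hsp90aa1, 35830 for Hsp90ab1, 6106 for Hspd1, 1210.0 for Hspe1, 1500.2 for Ahsa1, 2580.0 for Stip1, 808 for Chordc1 and 2584 for Ptges3. The group of this library is not settled by the header. Hspa1b was at 56354 normalised reads in field 10 and at 924 in field 6. It was at 1091 to 1618 without tamoxifen and at 44218 to 78418.5 with it. Dnajb1 was at 5231 in field 10 and at 1123 in field 6. It was at 671 to 763 without tamoxifen and at 4216 to 8776 with it. These levels were not used to place either field in a group.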

How the results depend on the processing

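The median log2 difference of the 10 genes was 0.16 to 0.32 when each library was left out in turn. It was 0.58 with names placed over the last 8 value columns and -0.16 over the first 8, where field 2 was left out. Pseudocount, filter, scaling, edgeR, DESeq2 and the replicate block moved none of the 10 genes by more than 1 SD. The Hsp90aa1 to Hsp90ab1 difference stayed within 1 SD in every setting run, at 0.60 to 0.89 in the leave-outs. All genes tested gave 6 calls, 2 to 1442 in the leave-outs (973 higher and 469 lower without tamoxifen_3), 275 in DESeq2, 21 with the replicate block and 0 with the names over the first 8. For other heat shock genes the count of 5 became 2 to 10 in the leave-outs, 10 in DESeq2 and 0 with the names over the first 8. For other co-chaperones and for clients it was 0 to 2 in the leave-outs. With the names over the last 8, Phb turned to 0.0019, Timm23 to 0.062 and Lyn to 1.02. That placement counts field 6 as a library without tamoxifen. In field 6 Phb was at 511 normalised reads, Timm23 at 293 and Lyn at 91.5, each below all 6 libraries. Why field 6 differs was not tested. Bag3 did not pass with equal totals (limma adjusted p = 0.0638). Same-numbered libraries correlated at 0.195, 0.0364 and 0.345 across genes in their deviations from group means, so the numbers are not shown to pair them. Adding field 10 as tamoxifen was chosen after seeing the data.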

Other observations

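Arrays of 3 heat shock units were also counted over all genes tested. Of 9562 tested genes with a promoter window, 56 held such an array, with a median log2 difference of 0.04, against -0.02 for the 9506 without. The 56 include Hspd1, Hspe1 and Chordc1, which were chosen with these values known. Of the 56, 5 had all tamoxifen libraries above all others and as many had them all below (8.93% each), against 6.31% above and 7.48% below without the array. Hspd1 and Hspe1 are among the 5 above, so that share is not independent of how they were chosen. In limma 1 of the 56 was called, Hsph1. Among other heat shock genes, 18 of 22 had a window and 1 held the array, again Hsph1. The other called heat shock genes, Hspa1b, Hspa1a, Dnajb1 and Bag3, had windows without 3 exact units.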
